A study of Mus musculus with 8 samples.

Results

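The insulin-like growth factor (IGF) family was followed here through 8 genes: the ligands Igf1 and Igf2, the receptor gene Igf1r, and the binding proteins Igfbp2, Igfbp3, Igfbp4, Igfbp5 and Igfbp7. A gene was taken from the deposited array table when a probe set carried its symbol and no other, and all 8 of the listed genes were found, each with 1 probe set, among 19938 genes. RNA came from mouse primary myoblasts, the dividing muscle precursors obtained by culturing satellite cells. It was hybridised to Affymetrix MoGene 1.0 ST arrays, 4 labelled Runx1f/f and 4 labelled WT, in each case numbered 1 to 4 as biological replicates. The labels give a C57bl/6 background, satellite cells from gastrocnemius muscle of mice aged 2 to 3 weeks, growth on Matrigel in proliferation medium for both genotypes, and 200 ng of total RNA per array. The Runx1f/f cells are called KO in the treatment field. How the floxed Runx1 sequence was removed, and how many animals a culture came from, is not stated in the labels. The study's question was which part of the myoblast transcriptome Runx1, a DNA-binding regulator, controls at the start of muscle repair. Values are log2 intensities. Levels are compared only within a gene, since probe sets differ in brightness, apart from low readings set beside the array medians.

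Igf1 and Igf2 encode small secreted proteins related to insulin that bind the tyrosine kinase receptor encoded by Igf1r and signal through Irs adaptors, PI3K and Akt. In muscle they promote both the growth of myoblasts and their differentiation, and differentiating myoblasts make Igf2 and respond to it themselves. The Igfbp proteins bind the ligands outside the cell and, depending on the setting, hold them back, carry them or present them to the receptor.

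The arrays stood apart by number and not by label. In every deposited row, 3 averages, over Runx1f/f 1 and 2, over Runx1f/f 3 and 4 and over the 4 arrays labelled WT, were equal within 7.5e-05, so the deposited columns hold no difference between the labels as attached to them. The 8 columns varied in 5 independent directions, where 8 unconstrained arrays give 7. In 4059 of 19938 genes (20.4%) the 4 arrays numbered 2 or 3 did not overlap the 4 numbered 1 or 4, 1968 with all of 2 and 3 above (9.87%) and 2091 with all below (10.5%). Runx1, the targeted gene, was among them, at 9.98 and 9.89 in Runx1f/f 2 and 3 and 9.99 and 10.27 in WT 2 and 3, against 9.35 and 9.44 in Runx1f/f 1 and 4 and 9.15 and 9.25 in WT 1 and 4. It did not separate the labels, which the equal means fix in advance. The probe set may also lie outside the deleted part, in which case it checks nothing. The labels do not say what the numbers stand for beyond replicates. They also give a source number for each sample, 140, 141, 161 and 181 for Runx1f/f 1 to 4 and 139, 142, 160 and 189 for WT 1 to 4, while the columns stand with the WT samples ahead of the Runx1f/f samples. If the columns stood in rising order of source number instead, the 3 sets with equal means would be 139 to 142, 160 with 161, and 181 with 189. All 4 columns numbered 2 or 3 would then be Runx1f/f samples and all 4 numbered 1 or 4 WT samples, so that the division described here would be the one by genotype. In that order the Runx1 probe set would read higher in the Runx1f/f samples, by a difference of means of 0.74, or 1.67-fold. Which order holds was not tested, and every array below is named by its label as deposited. This division of the arrays was proposed after earlier results of these data had been seen, so the values below describe it and no test was made of it. Replicate arrays are called biological in the labels, but p-values here measure only the spread between deposited columns that are not independent of each other.

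The labelled genotypes were compared gene by gene with limma, and of the 8 IGF family genes 0 rose and 0 fell in Runx1f/f at an adjusted p under 0.05. Over all genes the share called was 0% in each direction, and 0 genes had an unadjusted p under 0.05. Each member had an adjusted p of 1 in limma, which the equal means fix in advance, so nothing on Runx1 loss can be read from it. The spread around those equal means differed between the labels for single members. Igfbp5 was at 10.04 ± 0.13 in arrays labelled Runx1f/f and 10.04 ± 1.02 in arrays labelled WT (SD, n = 4 each). Igfbp7 had the wider spread under the other label, at 7.26 ± 1.02 in Runx1f/f and 7.26 ± 0.49 in WT arrays (SD, n = 4 each). The equal means bind the Runx1f/f columns in pairs and the WT columns all together. These SDs are therefore not those of 4 independent arrays, and the contrast between labels was not tested.

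Of the 8 members, 4 had non-overlapping values between numbers 2 and 3 and numbers 1 and 4, against 20.4% of all genes. Igf2, Igfbp3 and Igfbp4 were above, against 9.87% of all genes, and Igfbp2 was below, against 10.5%. The 250 bases before the most upstream RefSeq start of these 4 genes are shown because they are the members that separated the arrays. Capitals mark the letters TGTGGT (a core of Runx sites), CANNTG (the E-box, bound by MyoD and other helix-loop-helix factors) or TGANTCA (bound by AP-1 factors such as c-Jun), the factors named in the series title, on either strand. The windows are from GRCm38.p6: Igfbp2 at chr1:72824230-72824479 on the plus strand, Igfbp4 at chr11:99040994-99041243 on the plus strand, Igfbp3 at chr11:7213924-7214173 on the minus strand and Igf2 at chr7:142666817-142667066 on the minus strand.
Igfbp2: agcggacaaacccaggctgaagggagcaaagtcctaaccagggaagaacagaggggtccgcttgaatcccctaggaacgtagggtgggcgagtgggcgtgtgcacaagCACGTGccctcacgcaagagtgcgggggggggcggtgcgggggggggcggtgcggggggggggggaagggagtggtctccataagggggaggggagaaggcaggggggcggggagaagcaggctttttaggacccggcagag
Igfbp4: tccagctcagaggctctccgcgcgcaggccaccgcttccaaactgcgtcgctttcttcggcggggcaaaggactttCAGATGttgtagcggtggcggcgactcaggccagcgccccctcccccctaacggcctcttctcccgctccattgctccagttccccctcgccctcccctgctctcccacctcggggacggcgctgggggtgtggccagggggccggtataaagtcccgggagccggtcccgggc
Igfbp3: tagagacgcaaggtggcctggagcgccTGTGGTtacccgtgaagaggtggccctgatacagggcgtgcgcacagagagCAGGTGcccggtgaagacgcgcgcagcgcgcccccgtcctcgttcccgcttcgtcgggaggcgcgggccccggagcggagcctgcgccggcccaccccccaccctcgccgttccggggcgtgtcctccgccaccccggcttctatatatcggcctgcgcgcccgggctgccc
Igf2: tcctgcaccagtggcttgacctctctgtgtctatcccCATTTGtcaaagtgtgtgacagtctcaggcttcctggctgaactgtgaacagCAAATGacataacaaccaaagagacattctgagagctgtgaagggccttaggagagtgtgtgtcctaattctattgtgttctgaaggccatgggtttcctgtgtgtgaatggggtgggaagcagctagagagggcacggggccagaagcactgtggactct

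The RefSeq table held 12 start windows for the 8 genes, 4 of them for Igf2 and 2 for Igfbp2. TGTGGT was found in 1 of these 12 windows, that of Igfbp3, and in 14.05% of all 32851 windows of the same length. An E-box was found in 7 of 12 windows, against 66.2% of all windows, and TGANTCA in 2 of 12, against 6.75%. Of the 4 Igf2 windows only the most upstream, shown above, held an E-box, and the others held none of these motifs. The 2 with TGANTCA were Igf1 and the downstream start of Igfbp2. No motif letters overlapped in these windows, and a match in letters is not a binding site. In GC content the windows ran from 47.6% at the second start of Igf2 to 77.6% at Igf1r.

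**Figure D1:**
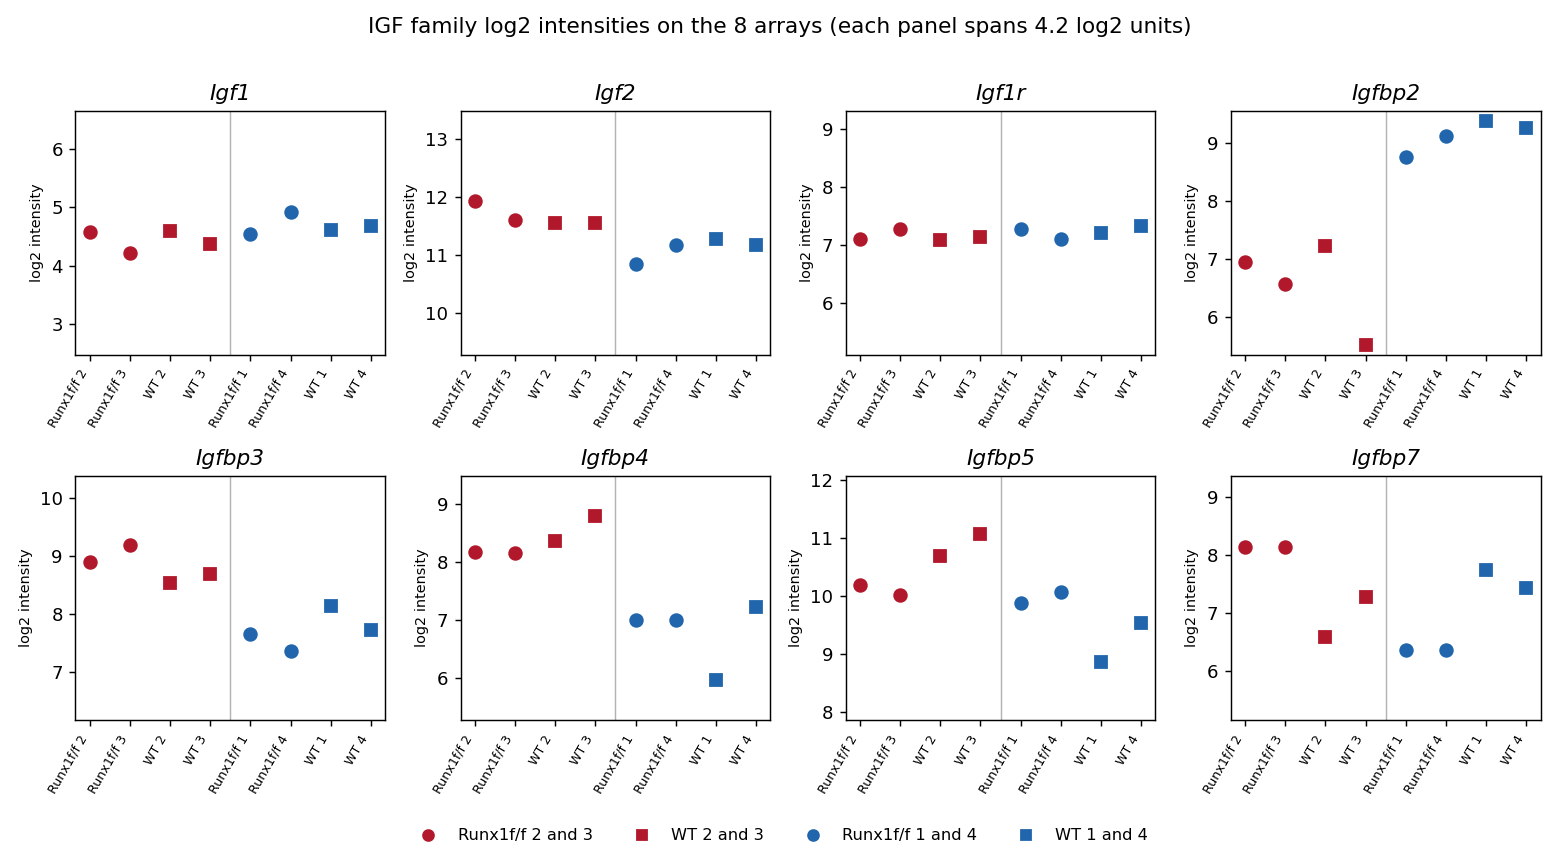
Log2 intensity of the 8 IGF family genes on each array, with arrays numbered 2 and 3 (red) left of arrays numbered 1 and 4 (blue), circles for the Runx1f/f label and squares for the WT label. Each panel spans the same number of log2 units, so the drop of Igfbp2 and the flat course of Igf1r can be compared by eye.

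Igfbp2 encodes a binding protein that also carries an integrin-binding RGD sequence, and it had the widest spread of the family. It read 6.94 and 6.58 in Runx1f/f 2 and 3 and 7.22 and 5.53 in WT 2 and 3, against 8.75 and 9.12 in Runx1f/f 1 and 4 and 9.38 and 9.26 in WT 1 and 4. The 4 arrays numbered 2 or 3 were all low, WT 3 the lowest, and the nearest values of the 2 sides lay 1.53 apart. Their mean was lower by a log2 difference of -2.56, or 5.90-fold. Of all 19938 genes 1 differed more in this direction, Sp7, which encodes an osteoblast transcription factor and which was looked up after the values were seen. A fall of more than 1.5-fold was found in 0.838% of genes.

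Igfbp4 encodes a binding protein that holds IGFs away from their receptor until the protease Pappa cleaves it. It read 8.16 and 8.16 in Runx1f/f 2 and 3 and 8.35 and 8.78 in WT 2 and 3, against 6.998 and 6.999 in Runx1f/f 1 and 4 and 5.96 and 7.21 in WT 1 and 4. All 4 arrays numbered 2 or 3 were high, and WT 1 was lower than the rest. The difference of means was 1.57, or 2.97-fold, and 65 genes had a larger one upward. Its probe set thus moved opposite to that of Igfbp2 in all 8 arrays relative to the mean of each gene.

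Igfbp3 encodes the main IGF carrier of blood serum, which also acts locally. It read 8.90 and 9.18 in Runx1f/f 2 and 3 and 8.53 and 8.69 in WT 2 and 3, against 7.65 and 7.37 in Runx1f/f 1 and 4 and 8.14 and 7.72 in WT 1 and 4. The sides did not overlap, and the closest values, WT 2 and WT 1, were 0.39 apart. The difference of means was 1.11, or 2.15-fold. Igfbp3, Igfbp4 and Igfbp5 were past 1.5-fold upward, as were 2.32% of all genes.

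Igf2, the ligand that myoblasts make as they differentiate, is expressed from the paternal chromosome. It read 11.92 and 11.60 in Runx1f/f 2 and 3 and 11.55 and 11.55 in WT 2 and 3, against 10.85 and 11.18 in Runx1f/f 1 and 4 and 11.28 and 11.18 in WT 1 and 4. The sides were 0.27 apart at their nearest values, and the range over 8 arrays was 1.07. The difference of means was 0.53, or 1.45-fold. Igf2 was thus the member with non-overlapping values and the smallest difference.

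Igfbp5, whose product is a binding protein of muscle, bone and matrix, overlapped between the sides. It read 10.20 and 10.01 in Runx1f/f 2 and 3 and 10.69 and 11.08 in WT 2 and 3, against 9.88 and 10.07 in Runx1f/f 1 and 4 and 8.86 and 9.53 in WT 1 and 4. Only Runx1f/f 3 and Runx1f/f 4 were out of order, by 0.05. The difference of means was 0.91, or 1.88-fold. It came to 1.69 within the arrays labelled WT and to 0.13 within those labelled Runx1f/f, a contrast between the labels that was not tested.

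Igfbp7, whose product binds IGFs weakly and is found in matrix and vessel walls, went opposite ways under the 2 labels. It read 8.15 and 8.15 in Runx1f/f 2 and 3, against 6.37 and 6.37 in Runx1f/f 1 and 4. The equal means make Runx1f/f 2 mirror 1, and 3 mirror 4, about the gene's mean, so these are not 4 independent values. Under the WT label it read 6.59 and 7.27 in WT 2 and 3, against 7.74 and 7.43 in WT 1 and 4. The difference of numbers 2 and 3 minus 1 and 4 was 1.77 within the Runx1f/f label and -0.65 within the WT label, and the 4 and 4 values overlapped.

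The ligand Igf1 and the receptor gene Igf1r varied least. Igf1 read 4.58 and 4.21 in Runx1f/f 2 and 3 and 4.59 and 4.37 in WT 2 and 3, against 4.55 and 4.92 in Runx1f/f 1 and 4 and 4.61 and 4.69 in WT 1 and 4. Its sides overlapped by 0.04, and the difference of means was -0.25. The Igf1 readings lay around the array medians of 4.39 to 4.41, where a change may not be fully visible. Igf1r read 7.10 and 7.28 in Runx1f/f 2 and 3 and 7.10 and 7.14 in WT 2 and 3, against 7.29 and 7.11 in Runx1f/f 1 and 4 and 7.20 and 7.34 in WT 1 and 4. Its 8 values lay within 0.24, and the difference of means was -0.08. The receptor probe set thus moved little while ligand and binding protein probe sets moved by more.

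**Figure D2:**
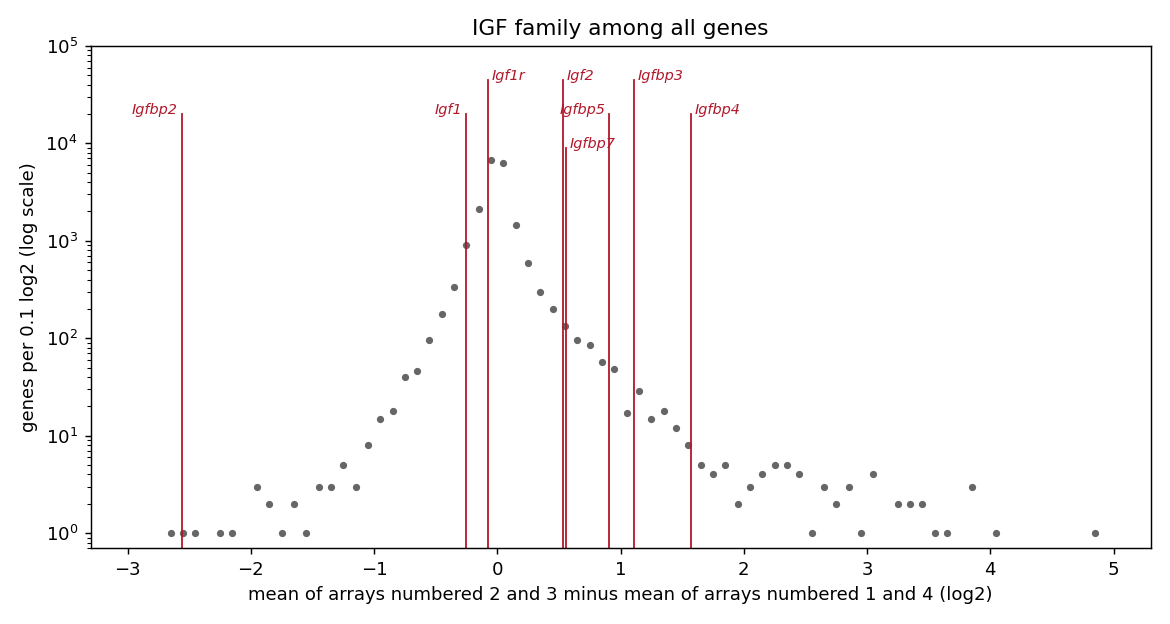
Number of genes (log axis, grey points, bins of 0.1) by the difference of mean log2 intensity between arrays numbered 2 and 3 and arrays numbered 1 and 4, with the 8 IGF family genes as red lines. Igfbp2, at -2.56, lies at the lower end, where Sp7 was the single gene beyond it, and Igfbp4, at 1.57, in the upper tail.

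The 3 sets of arrays that share a mean give 3 separate differences for a gene: Runx1f/f 2 minus Runx1f/f 1, Runx1f/f 3 minus Runx1f/f 4, and the mean of WT 2 and 3 minus the mean of WT 1 and 4. Within the family, 3 genes were positive in all 3 sets and 1 was negative in all 3, the same 4 genes that did not overlap. Values that do not overlap must have the same sign in all 3 sets, so for these 4 genes the match was fixed in advance. Over all genes, 16.8% were positive and 19.6% negative in all 3 sets. Igfbp2 differed by -1.81, -2.54 and -2.95 in that order. Igfbp4 differed by 1.16, 1.16 and 1.98, and Igfbp3 by 1.25, 1.81 and 0.68. For Igf2 the differences were 1.07, 0.42 and 0.32. Igf1r changed sign between the sets, with -0.19, 0.17 and -0.15, and Igf1 was at 0.03, -0.71 and -0.17. Igfbp5 was at 0.32, -0.05 and 1.69. The order of Igfbp3 and Igfbp4 was therefore not the same in each set: Igfbp3 had the larger difference in both Runx1f/f pairs and Igfbp4 among the WT arrays.

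**Figure D3:**
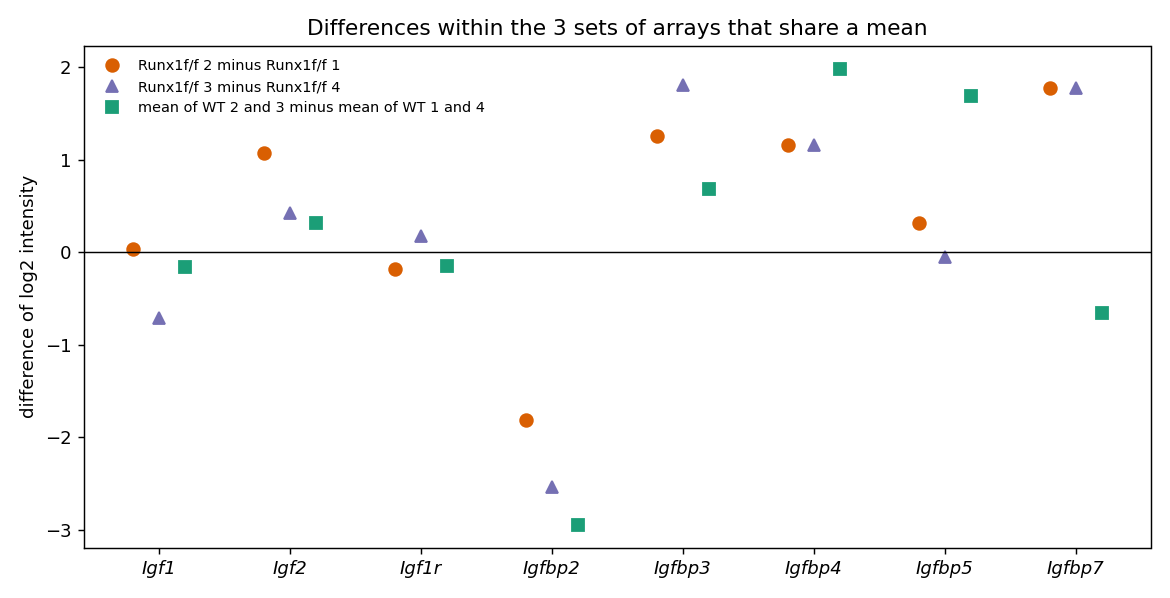
Difference of log2 intensity within each of the 3 sets of arrays that share a mean, for the 8 IGF family genes. All 3 symbols are below 0 for Igfbp2 and above 0 for Igf2, Igfbp3 and Igfbp4, while Igfbp7 lies near 1.77 in both Runx1f/f pairs and at -0.65 among the WT arrays.

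Other genes of the IGF system were described in the same way, and 0 of the 51 measured genes in 5 pathway lists were called between the labels by limma. Between the numbers, 14 of the 51 had all of 2 and 3 above and 4 all below, against 9.87% and 10.5% of all genes, and their median difference was 0.02, against -0.01 over all genes and 0.55 over the 8 members. Among 7 other receptors and binding proteins, 3 were above and 0 below. Igf2r, the receptor that clears Igf2 from the cell surface, ranged from 9.67 to 10.21 in arrays numbered 2 or 3 and from 9.03 to 9.34 in arrays numbered 1 or 4, a difference of 0.69. Igfbp6, which prefers Igf2 over Igf1, ranged from 7.50 to 8.13, against 6.59 to 7.08, a difference of 1.14. Igfbp1, the neighbour of Igfbp3 on chromosome 11, differed by 0.12, with the sides 0.02 apart. Its readings, 3.57 to 3.83, lay below the array medians of 4.39 to 4.41, where so small a gap carries little weight. Insr, the insulin receptor gene, overlapped, with a difference of 0.18.

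Proteases and their regulators showed 2 of 7 genes above and 0 below, against 9.87% and 10.5% of all genes. Adam12, a membrane protease known to cleave Igfbp3 and Igfbp5, read 5.45 and 5.56 in Runx1f/f 2 and 3 and 4.79 and 5.44 in WT 2 and 3, against 3.80 and 3.69 in Runx1f/f 1 and 4 and 4.23 and 4.04 in WT 1 and 4. Its 4 higher arrays were thus the same as for Igfbp3, with a difference of 1.37. The Adam12 readings in arrays numbered 1 or 4 lay below the array medians of 4.39 to 4.41, so the size of that difference is uncertain. Stc1, a stanniocalcin, differed by 0.30, with all readings (3.68 to 4.30) below the array medians. Pappa, the protease of Igfbp4, was not among the genes that separated the arrays, with a difference of 0.02. Its readings, 3.51 to 3.66, lay below the array medians of 4.39 to 4.41, where a change may not be visible.

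In the list on the Igf2 locus and Igf2 mRNA binding, 2 of 6 measured genes were above and 1 below. The shares over all genes were 9.87% and 10.5%. Igf2bp3 and Igf2bp1, which encode proteins that bind Igf2 mRNA, differed by 0.56 and 0.28. All readings of Igf2bp1 (3.74 to 4.24) lay below the array medians. Plag1, a zinc finger factor known to activate Igf2, differed by -0.25. H19 and Igf2bp2 were not analysed here. Ins2, the coding gene next to Igf2 on chromosome 7, overlapped, with a difference of 0.02. Its readings, 3.51 to 3.63, also lay below the array medians.

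Growth hormone signalling, which raises Igf1 in liver, had 1 of 5 genes above and 1 below, against 9.87% and 10.5% of all genes. Stat5b, a transcription factor of this pathway, ranged from 5.66 to 6.06 in arrays numbered 2 or 3 and from 4.99 to 5.29 in arrays numbered 1 or 4. Socs2, an inhibitor of growth hormone signalling, ranged from 8.19 to 8.73, against 8.82 to 9.40, a difference of -0.67. Among 26 measured adaptor and PI3K pathway genes, 6 were above and 2 below, against the same shares of all genes. Grb10, an imprinted adaptor that restrains insulin and IGF receptor signalling, had a difference of 1.19, with 10.18 to 10.67 in arrays numbered 2 or 3, against 9.04 to 9.58 in arrays numbered 1 or 4. Gab1, Pik3r2 and Akt2, of the signalling chain below the receptor, differed by 0.58, 0.50 and 0.40.

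**Figure D4:**
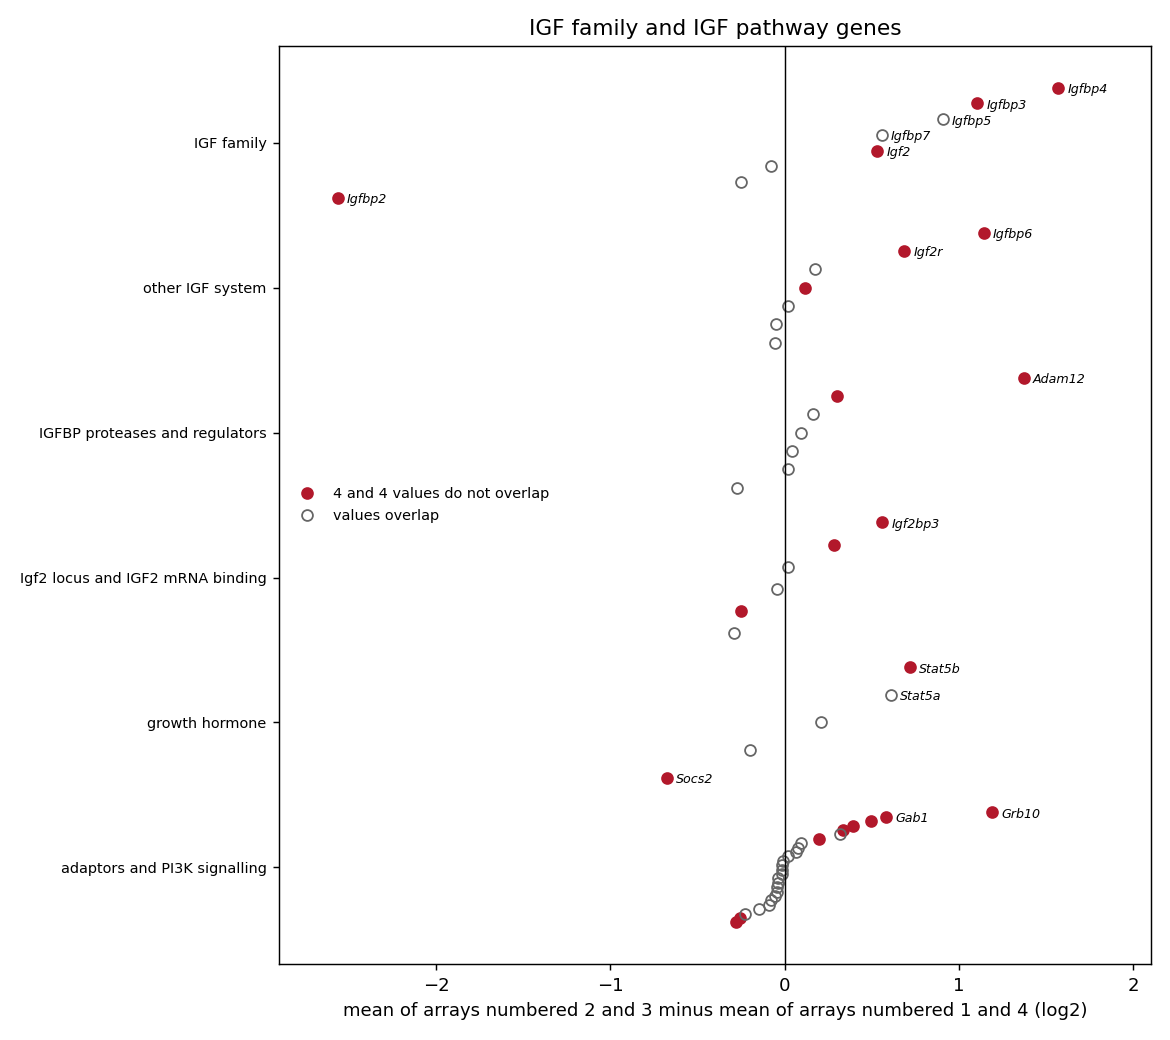
Difference of mean log2 intensity between arrays numbered 2 and 3 and arrays numbered 1 and 4 for the IGF family and 5 pathway lists, 1 point per gene, with gene names where the difference is large. Filled points mark genes whose 4 and 4 values do not overlap: Igfbp4, Adam12, Grb10, Igfbp6 and Igfbp3 lie furthest right and Igfbp2 furthest left.

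Markers of muscle differentiation moved with the same arrays. All 10 listed genes had numbers 2 and 3 above 1 and 4. Over all genes 9.87% lay above in this way and 10.5% below, shares that also stand beside the marker counts that follow. The median log2 level of the differentiation list ran from 10.92 to 11.32 in arrays numbered 2 or 3. In arrays numbered 1 or 4 it ran from 9.97 to 10.65. Myog, which drives terminal differentiation, differed by 0.76, and Mybpc1, a myosin-binding protein gene, by 1.54. Of 8 myoblast markers, 2 were above (Des and Cdh15) and 3 below (Myod1, Myf5 and Sdc4), and Myf5 differed by -0.89. The part of these shifts in the IGF family values was not tested, and in bulk RNA fewer cells of a type and less RNA per cell cannot be told apart. The summed log2 level of 7 fibroblast markers ran from 35.15 to 35.72 in arrays numbered 2 or 3 and from 35.24 to 35.84 in arrays numbered 1 or 4, with 0 above and 1 below. For 5 leukocyte markers it ran from 18.34 to 18.58, against 18.21 to 18.40, with 1 above. For 4 endothelial markers it ran from 13.90 to 14.02, against 14.03 to 14.16, with 1 above and 1 below. For 3 adipocyte markers it ran from 10.86 to 10.97, against 10.79 to 11.00, with 0 in either direction. In the Schwann and neural list Gfap was the 1 gene measured, and it overlapped. Array values have no zero, so absence of a marker cannot be read from them. Of the 8 myoblast markers, Myod1 and Des read 11.12 or more on every array, while Myf5 read 7.54 to 8.71 and Pax7 6.83 to 7.19. Probe sets differ in brightness, so these readings do not rank the markers, and cell identity was not tested.

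For the 6 members whose values ranged over more than 1 log2 unit, the genes with the most alike profiles were sought by the root mean square (RMS) difference over the 8 arrays, after subtracting each gene's mean. Nearest to Igfbp2 were Alox5, a lipoxygenase gene, at 0.17, Mcpt8, a basophil protease gene, at 0.22, and R3hdml at 0.24, where the SD of Igfbp2 itself was 1.46. These 3 genes were also all low in numbers 2 and 3. Nearest to Igf2 were the cardiac actin gene Actc1 at 0.08, the actin-severing gelsolin gene Gsn at 0.08 and the dystrobrevin gene Dtna at 0.08, against an SD of 0.33. Igfbp3 lay closest to Mylk4 at 0.08, Rftn2 at 0.10 and Mgp, the matrix Gla protein gene, at 0.13, against an SD of 0.65. Igfbp4 lay closest to Pknox2 at 0.25, Lrig1 at 0.29 and Pdzrn3 at 0.30, against an SD of 0.94.

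Igfbp5 was nearest to Nptx1 at 0.11, the immediate early gene Egr1 at 0.15 and the receptor gene Egfr at 0.19, against an SD of 0.68. Igfbp7 was nearest to Ripk3 at 0.21, the hyaluronan synthase gene Has2 at 0.21 and Islr at 0.23, against an SD of 0.74, and these 3 also overlapped between the numbers. Within the family the closest pair of these 6 was Igf2 and Igfbp3 at 0.38, followed by Igfbp4 and Igfbp5 at 0.41. Igfbp2 and Igfbp5, which are neighbouring coding genes on chromosome 1, were 1.91 apart, and Igfbp2 and Igfbp4 were the farthest pair at 2.20. A small RMS difference over these 8 dependent columns describes likeness in these arrays only.

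**Figure D5:**
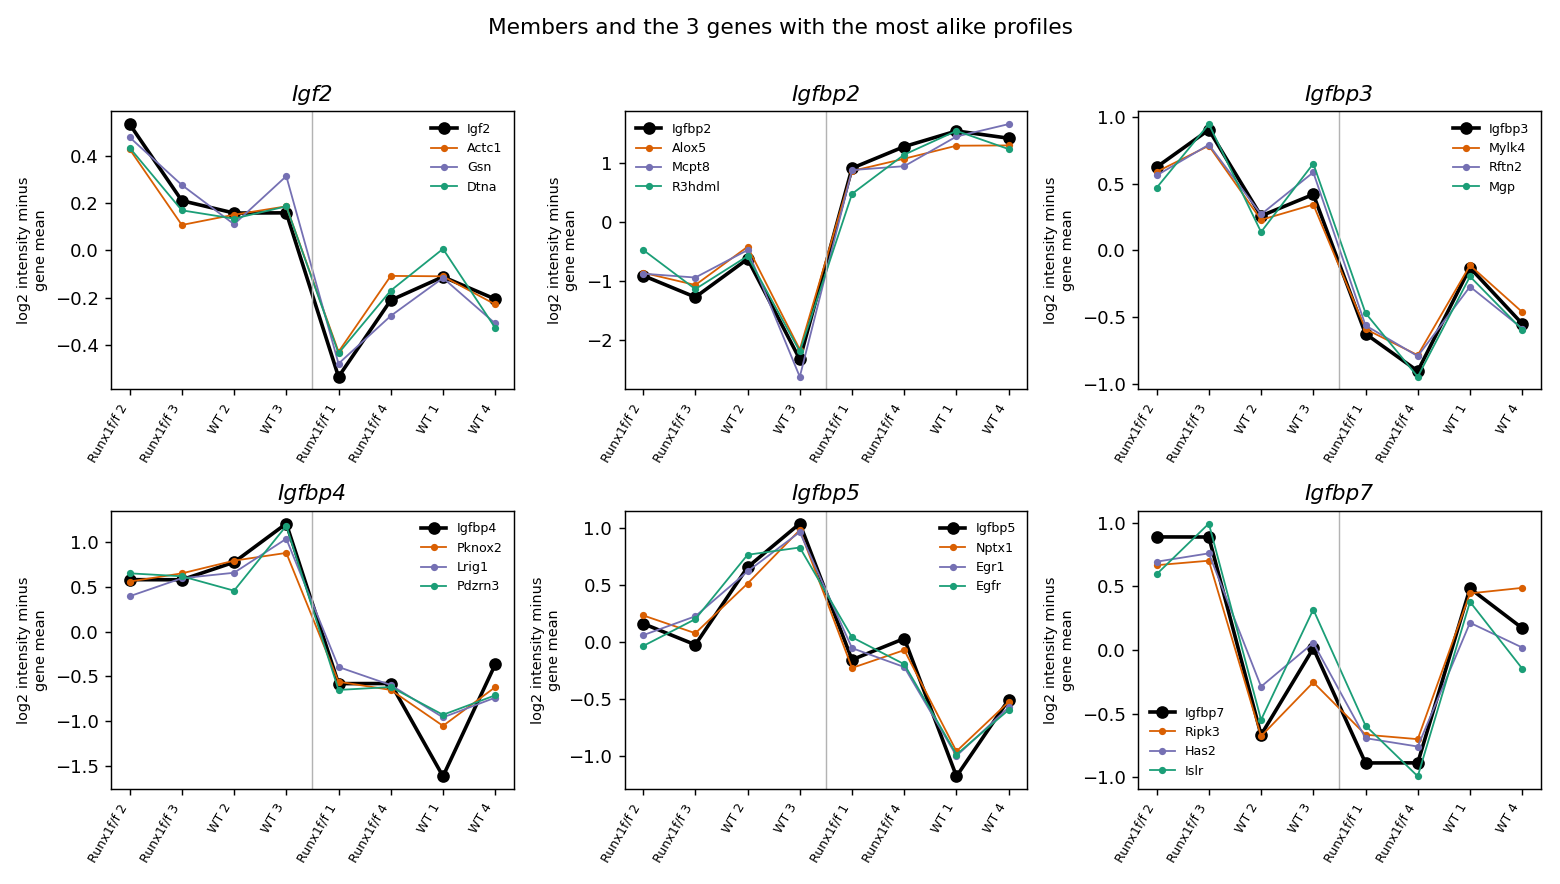
Log2 intensity minus the mean of each gene over the 8 arrays, for 6 IGF family genes (black) and the 3 genes nearest to each by RMS difference (colours), with arrays numbered 2 and 3 left of arrays numbered 1 and 4. Igf2, Igfbp3 and Igfbp4 step down to the right, Igfbp2 steps up, and Igfbp7 follows no such step.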

How the data were processed

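Per the labels, RNA of 8 cultures was hybridised to single-colour arrays. The authors deposited log2 intensities, with a value for each probe set on each array. Per the submitters' processing notes, RMA and Partek were used (no version listed). RMA corrects background, quantile-normalizes arrays and summarizes probes on the log2 scale. No header or label records a later adjustment that would make column means equal. Precision is limited by the number of arrays. Scanner files and detection values were not used here.

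Of 35399 rows, 21789 had 1 gene symbol in the platform annotation, and the row with the highest mean represented each of 19938 genes. The labels were tested against each other in R 4.3.3 by limma 3.58.1 (lmFit, eBayes, genotype as sole term, two-sided, Benjamini-Hochberg over all genes, threshold 0.05). The fit was checked on simulated independent arrays, which the deposited columns are not, so that check does not carry over to them. Values by replicate number were described without a test, as non-overlap, as difference of means, and as a fold past 1.5. The members, lists and tests were chosen with earlier results of these data known. The genes named are the 8 members, in each pathway list up to 4 genes without overlap and with the largest differences (and Igf2r, Insr and Igfbp6), and the 3 nearest profiles for members ranging over more than 1. Pappa, Ins2, Sp7 and the markers named were added after their values were seen.

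Deviations from the label means correlated by 0.39, 0.46, 0.60 and 0.57 between same-numbered arrays of both labels (numbers 1 to 4), so the number was also used as a block. That pairing comes from the values rather than from the labels, and 4 of the 8 arrays correlated best with another number of the other label, within 2 and 3 or within 1 and 4. Sequences are from RefSeq (GRCm38.p6), and all 8 members matched by symbol. Alternatives were blocks, array weights, centring, repeated quantile normalization, the mean of probe sets, a filter on dim genes and each array left out.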

Additional observations from a re-analysis of the deposited data

Results flagged for a closer look

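Igfbp7 stood out because its arrays numbered 2 and 3 lay above numbers 1 and 4 in every case under the Runx1f/f label and below them in every case under the WT label. Under the Runx1f/f label the equal means make the arrays mirrored pairs, so that order does not rest on 4 independent values. The difference was 1.77 within Runx1f/f and -0.65 within WT, and Runx1f/f minus WT came to 2.43. This contrast was not tested. No single array was marked as far from the others of its label in the 16 groups of 4 member values checked. Under the Runx1f/f label this was fixed in advance. Each array there has a partner lying equally far from the gene's mean on the opposite side, so none could stand alone. The check could therefore mark an array only under the WT label.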

How the results depend on the processing

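The count of 0 genes called between the labels was 0 under each alternative run: the replicate block, the source number runs as a block, array weights, centring, repeated quantile normalization, the mean of probe sets, the filter on dim genes and each array left out. With the replicate number as a block limma again called 0 genes, with 0 at an unadjusted p under 0.05, and the pairing changed no other call. Leaving out an array breaks the equal means, and 0 to 27 genes then had an unadjusted p under 0.05, so these counts say nothing about robustness. Of the 8 members, 4 did not overlap between the numbers, beside 20.4% of all genes. Leaving out an array can only keep or raise this count, so it says nothing about stability. It was 4 to 5, beside 23.2% to 26.0% of all genes: Igf1 joined without Runx1f/f 1, and Igfbp5 without Runx1f/f 3 or without Runx1f/f 4. Centring, repeated quantile normalization and the mean of probe sets gave the same 4 genes. Over all genes the share without overlap was 20.6% after centring and 21.0% after repeated quantile normalization. With an array left out, the difference ranged from -2.78 to -2.22 for Igfbp2, from 1.29 to 1.71 for Igfbp4, from 0.99 to 1.25 for Igfbp3, from 0.44 to 0.58 for Igf2, from 0.67 to 1.07 for Igfbp5, from 0.36 to 0.88 for Igfbp7, from -0.30 to -0.18 for Igf1 and from -0.12 to -0.04 for Igf1r. Through the equal means, leaving out Runx1f/f 1 or Runx1f/f 2 gave the same difference, and so did leaving out 3 or 4. These ranges therefore do not measure stability over 8 independent arrays. The median of the 8 differences was 0.55 over all arrays, 0.44 within the Runx1f/f label and 0.08 within the WT label. Detection values were not analysed, so no limit from signal over background is given.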
